A study of Mus musculus with 90 samples.

Results

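The 10 genes described here encode collagen chains: Col1a1, Col1a2, Col3a1, Col4a1, Col4a2, Col5a2, Col6a1, Col14a1, Col15a1 and Col18a1. They were taken from a list of symbols matched to the Ensembl identifiers of the 4 deposited count tables, and all 10 were found among 27654 identifiers, beside 34 collagen genes that were not on the list. PolyA RNA from livers of male C57BL/6J mice on chow was sequenced in 90 libraries to ask how the glucocorticoid receptor of hepatocytes, encoded by Nr3c1, takes part in the response to eating less. The time series held 78 libraries from GRfl/fl mice, which carry a floxed receptor gene and are called WT below, and from GRfl/fl x Alb-Cre mice, called GRLKO, in which the albumin promoter drives Cre and so directs the deletion to hepatocytes. Livers were taken every 4 h at 6 zeitgeber times, from ZT0 (lights on) to ZT20, with 22 WT and 20 GRLKO libraries on the control diet (food limited to the night in the last week) and 18 and 18 under calorie restriction with 40% less food. Mice were 12 weeks old at the start, and the protocol ran for 8 weeks. A diet experiment compared 3 control and 3 calorie-restricted libraries of mice labelled WT at ZT12. The control titles of this experiment carry AL and those of the time series NRF, while both give night-restricted feeding as the treatment. A hormone experiment compared 3 libraries of WT mice injected daily for 7 days with corticosterone, the main glucocorticoid of mice, with 3 from mice given the oil vehicle, all night-fed and taken at ZT12. The labels do not say whether replicates were separate animals.

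Total counts ranged from 10057544 to 17089004 per library (median 13427104) in the control-fed time series and from 14235473 to 20788575 (median 17386700) in the calorie-restricted one. They ranged from 36442195 to 39492146 (median 37407547) in the diet experiment and from 13739631 to 16077943 (median 14431389) in the hormone experiment. The diets of the time series were deposited as separate tables, so there diet and table cannot be told apart. Levels are given as CPM (counts relative to library size, scaled by the trimmed mean of M values), and a gene is called changed when its Benjamini-Hochberg adjusted p over all genes tested is under 0.05. Log2 differences are GRLKO minus WT, calorie restriction minus control, or corticosterone minus vehicle.

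Collagens are triple-helical proteins of the extracellular matrix. Types I, III and V form fibrils, type IV forms the sheet of basement membranes, type VI forms beaded filaments, type XIV sits on fibril surfaces, and types XV and XVIII carry sugar chains and lie in basement membrane zones. In the liver, stellate cells and portal fibroblasts are the known main producers of fibrillar collagen, endothelial cells express basement membrane chains, and Col18a1 is expressed by hepatocytes.

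The labels were checked first. Nr3c1 ranged from 72.8 to 117 CPM (median 86.9) in the 22 control-fed WT libraries and from 16.2 to 28.8 (median 21.7) in the 20 GRLKO libraries. Under calorie restriction it ranged from 70.5 to 113 (median 94.0) in WT and from 21.6 to 32.2 (median 25.0) in GRLKO. Every GRLKO library lay below every WT library of its diet. The average log2 difference was -1.96 ± 0.046 (SE) on the control diet (edgeR, adjusted p = 9.47e-30) and -1.84 ± 0.037 under calorie restriction (adjusted p = 4.86e-28). In the diet experiment Nr3c1 stood at 91.4 ± 3.96 CPM (SD, n = 3) in control and 86.5 ± 1.96 (n = 3) in calorie-restricted libraries. In the hormone experiment it stood at 73.6 ± 4.18 (n = 3) with vehicle and 70.5 ± 11.3 (n = 3) with corticosterone. Albumin transcript, the defining hepatocyte product, averaged 67258 CPM in control-fed WT livers.

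Some libraries stood apart. The fibrillar chains Col1a1, Col1a2 and Col3a1 summed to 152 CPM in replicate 1 of control-fed GRLKO at ZT20 and to 132 CPM in replicate 3 of control-fed WT at ZT0, which were 4.56 and 3.71 times the median of the other libraries of their groups. No other library exceeded 2.34 times. The 6 markers of exocrine pancreas summed to 987 CPM in replicate 3 of calorie-restricted WT at ZT12 and to 608 CPM in replicate 2 of control-fed WT at ZT16, with Amy2a5 the most abundant. In these libraries the trypsinogen gene Prss2 was at 88.2 and 38.8 CPM, whereas Prss2 had no count in 83 of 90 libraries. The 4 muscle markers summed to 201 CPM in replicate 1 of calorie-restricted GRLKO at ZT12, with Myh1 the most abundant, Ckm at 10.97 CPM and Des at 14.7 CPM, and to at most 13.2 CPM in any other library. Values without them are given beside the results they bear on most.

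Divided by the length of 1 annotated transcript per gene, Col18a1 was the most abundant of the 10 genes in control-fed WT livers, at 191 ± 24.4 CPM per kilobase (SD, n = 22). Col14a1, whose product binds the surface of fibrils, followed at 7.195 ± 2.64, and Col3a1, the type III chain, at 3.56 ± 2.71. The basement membrane chains Col4a1 and Col4a2, which assemble with each other, stood at 3.11 ± 1.45 and 2.42 ± 0.958. The order went on with Col6a1 at 1.58 ± 0.718, Col1a2 at 1.49 ± 0.914, Col15a1 at 1.44 ± 0.462, Col1a1 at 0.793 ± 0.854 and Col5a2 at 0.450 ± 0.297. Only for Col18a1 did the range of mean ± SD stay clear of that of the next gene in this order. Without the control-fed WT library high in fibrillar collagen (n = 21), Col14a1 stood at 6.83 ± 2.06 and Col3a1 at 3.05 ± 1.34. The ranges of these 2 genes then no longer overlapped. Col1a1 stood at 0.622 ± 0.298 without that library, and Col15a1 (1.46 ± 0.465) preceded Col1a2 (1.32 ± 0.450). The order in the 18 calorie-restricted WT libraries was the same except that Col4a1 (3.27 ± 1.41) preceded Col3a1 (2.68 ± 1.70) and Col5a2 (0.454 ± 0.131) preceded Col1a1 (0.453 ± 0.353), with ranges of mean ± SD that overlap.

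The genes lie on 7 chromosomes in mm10. Col4a1 (chr8:11198423-11312826, minus strand) and Col4a2 (chr8:11312805-11449287, plus strand) are transcribed away from each other and their annotated first bases overlap over 22 bases. Col3a1 (chr1:45311538-45349706, plus strand) and Col5a2 (chr1:45374321-45503282, minus strand) face each other across 24614 bases. Col15a1 lies on the plus strand at chr4:47208161-47313167 and Col18a1 on the minus strand at chr10:77052178-77166548. RefSeq promoter sequences (GRCm38.p6) were at hand for 7 of the 10 genes, with 8 promoters, and were not at hand for Col1a1, Col5a2 and Col14a1. Over the 250 bases before the start, searched on both strands, the letters TGTTCT, part of the site of the glucocorticoid receptor, were in 0 of these 8 promoters and in 16.1% of 32851 mouse promoters. The E-box CACGTG, bound by clock factors, was in 0 of 8 and in 6.02% of all. CCAAT was in 4 of 8 (Col1a2, Col4a1, Col4a2 and Col18a1) and in 33.8% of all. TATAAA was in 1 of 8, that of Col3a1, and in 12.4% of all. The upstream sequence of Col3a1, the fibrillar chain with the highest level per length among the 10 genes, is shown with that match in capitals (bases 134 to 139; chr1:45311288-45311537, plus strand, GRCm38.p6). A match describes letters and not a bound site, and a missing match concerns these 250 bases alone.
Col3a1 upstream: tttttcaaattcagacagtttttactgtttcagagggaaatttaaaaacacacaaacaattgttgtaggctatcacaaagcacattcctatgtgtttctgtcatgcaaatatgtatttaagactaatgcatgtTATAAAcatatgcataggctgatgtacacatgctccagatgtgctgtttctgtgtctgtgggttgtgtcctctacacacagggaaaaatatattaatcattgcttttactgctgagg

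The diet experiment asked how calorie restriction changes the liver at ZT12, the hour at which the restricted mice were fed. Col15a1, the type XV chain, was at 9.48, 9.22 and 9.35 CPM in the control libraries and at 1.22, 1.17 and 1.34 CPM in the calorie-restricted libraries. The values within each diet lay close together and far from the other diet, with control means 7.52 times the restricted ones. The log2 difference was -2.91 ± 0.12 (SE; edgeR, adjusted p = 3.33e-05; lower in 3 of 3 libraries), and it stayed between -2.96 and -2.40 under 11 alternatives. In bulk RNA, fewer cells of a type and less RNA per cell cannot be told apart.

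Of the 4 genes for fibrillar chains, Col1a1 and Col3a1 were lower, with more spread, and Col1a2 (-0.70, adjusted p = 0.119) and Col5a2 (0.02, adjusted p = 0.944) did not pass the test. Col1a1, a chain of type I collagen, was at 5.94, 12.5 and 4.83 CPM in control and at 4.49, 1.35 and 2.32 CPM in calorie-restricted libraries. Col3a1 was at 20.5, 45.2 and 19.0 CPM in control and at 18.1, 8.01 and 11.1 CPM in calorie-restricted libraries. For both genes the groups did not overlap, control replicate 2 was the highest and calorie-restricted replicate 2 the lowest. The log2 differences were -1.52 ± 0.50 for Col1a1 (adjusted p = 0.0405; lower in 3 of 3 libraries) and -1.19 ± 0.41 for Col3a1 (adjusted p = 0.0463; lower in 3 of 3). DESeq2 called Col1a1 (adjusted p = 0.00380) and did not call Col3a1. Both calls ended when replicate number was added to the fit as a block. They also ended without control replicate 1, control replicate 2, calorie-restricted replicate 2 or calorie-restricted replicate 3. Without control replicate 2, the highest library, Col1a1 stood at -0.99 (adjusted p = 0.138) and Col3a1 at -0.68 (adjusted p = 0.138). Over the 4 libraries the adjusted p ran from 0.0634 for Col1a1 and 0.0560 for Col3a1, both without control replicate 1, to 0.138.

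Col18a1, the hepatocyte-expressed chain from which endostatin is released, was at 935, 991 and 902 CPM in control and at 1242, 1057 and 1117 CPM in calorie-restricted libraries. The restricted libraries were all higher, and the log2 difference was 0.27 ± 0.087 (adjusted p = 0.0375; higher in 3 of 3). The call ended without any single library except calorie-restricted replicate 2, at adjusted p from 0.0618 without calorie-restricted replicate 1 to 0.104 without control replicate 3. A replicate block in the fit ended it as well. In the ZT12 libraries of the time series, where diet and table coincide and the control titles differ as given above, the difference had the opposite sign, -0.24 (adjusted p = 0.0750). Col1a1 (-1.81) and Col15a1 (-2.40) were lower there as well, at adjusted p = 0.0378 and 0.000966. Col3a1 was not called there (-0.58, adjusted p = 0.152). Col6a1, a chain of the beaded filaments, was called there and not in the diet experiment (0.87, adjusted p = 0.0120).

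In all, 4 of the 10 genes were called in the diet experiment, 1 higher and 3 lower, where 47.1% of all genes tested were called, 23.5% higher and 23.6% lower. The groups did not overlap for 5 of the 10, the 4 called and Col4a2. The share of all genes tested without overlap was not counted, so these 5 are not a result about collagens. Col4a2 was at 13.6, 20.5 and 14.3 CPM in control and 12.6, 11.4 and 13.5 in restricted libraries (-0.37 ± 0.17, adjusted p = 0.109). The median log2 difference was -0.40 over the 10 genes and 0.00 over all genes. The share called is near the share of all genes and is not a result about collagens.

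**Figure D1:**
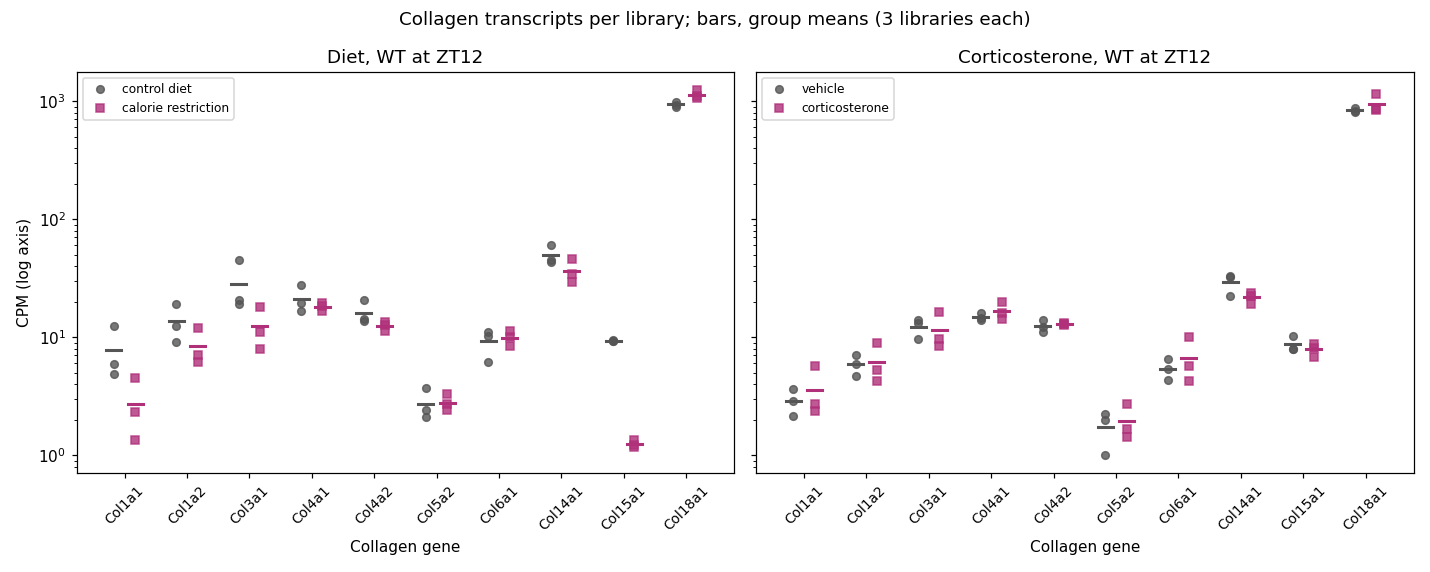
CPM on a log axis of the 10 collagen genes in each library of the diet experiment (left) and the hormone experiment (right), with bars at the means of 3 libraries. Col15a1 sits between 9.22 and 9.48 CPM in control and between 1.17 and 1.34 CPM in calorie-restricted libraries, and corticosterone and vehicle points overlap for each gene.

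Lists of genes that act on collagens are described by their counts, which are to be read against the 47.1% of all genes called with diet and are not a result about the lists. Of 19 tested genes that fold or modify collagen, 5 rose and 2 fell. The prolyl hydroxylase subunits P4ha1 and P4ha2, which stabilise the triple helix, rose by log2 1.78 and 1.26. The prolyl isomerase Fkbp14 rose by 1.06 and the prolyl 3-hydroxylase P3h2 by 0.84, while Colgalt2 (-1.18) and the isomerase Ppib (-0.45) fell. Of 10 processing and crosslinking genes, 2 rose, Adamts14 (1.05) and Bmp1 (0.28), which encode enzymes that trim procollagen, and 1 fell, the transglutaminase gene Tgm2 (-1.11). Of 7 collagen receptor genes, 3 rose, among them the integrin genes Itga10 (1.16) and Itga1 (0.50). Of 9 basement membrane partners, Nid1 (0.73) and Lamc1 (0.45) rose and Agrn (-0.43) fell.

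Of 19 partners of interstitial collagen 3 rose, the fibronectin gene Fn1 (2.32, adjusted p = 0.0162), and the small proteoglycan genes Dcn (0.75) and Bgn (0.32), which bind fibrils. The counts of Fn1, with means of 0.583 CPM in control and 2.92 CPM in restricted libraries, are low for a gene that liver is known to express strongly. Of 13 matrix degradation genes 4 rose and 2 fell, with Adamts1 at 1.02, the inhibitor gene Timp3 at 0.53, the collagenase gene Mmp14 at 0.51, the cathepsin gene Ctsl at 0.49, Mmp15 at -1.09 and Mmp19 at -0.50. Of 24 genes of TGF-beta and PDGF signalling 11 rose and 2 fell, with Ccn2 at 2.67, Skil at 1.39, Pdgfra at 1.27, Smad7 at 1.26, Pdgfa at -0.86 and Tgfbr2 at -0.57. Among 19 other collagen genes tested 3 rose, Col7a1 (1.70), Col11a2 (1.58) and Col13a1 (1.24), and 3 fell, among them Col5a3 (-1.15) and Col27a1 (-0.91). The median differences of these lists ran from -0.06 for processing genes to 0.64 for TGF-beta and PDGF signalling.

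Marker counts of cell types are to be read against the 47.1% of all genes called with diet (23.5% higher and 23.6% lower), and a share near it is not a result about a cell type. Of 9 stellate cell markers 4 rose and 0 fell, and they summed to 247, 222 and 197 CPM in control and to 307.5, 273 and 309 CPM in restricted libraries, with Ecm1 the most abundant. Of 9 endothelial markers 6 rose and 0 fell, with sums of 145, 187 and 192 CPM against 248, 248 and 285 CPM, Kdr the most abundant in control and Clec4g in restricted libraries. Of 8 portal fibroblast markers 6 were tested and 1 fell (Entpd2, -0.77, the most abundant), and all 8 summed to 9.88, 11.9 and 10.04 against 9.73, 8.24 and 10.3 CPM. Of 6 markers of myofibroblast activation 3 were tested and did not pass, and all 6 summed to 5.42, 7.24 and 6.50 against 8.02, 4.81 and 6.77 CPM, with Tagln the most abundant. Of 8 hepatocyte markers 3 rose and 0 fell (Alb by 0.99), with sums of 91305, 91518 and 96203 against 157445, 159838 and 162353 CPM. Of 5 cholangiocyte markers 4 were tested and 2 rose, Sox9 (1.24) and Krt19 (1.00), with sums of 4.17, 4.34 and 5.07 against 8.65, 7.90 and 10.3 CPM over all 5, Sox9 the most abundant and Epcam at 0. Cd79a (-3.78), 1 of 4 lymphocyte markers tested, Cd5l (-0.50), 1 of 8 Kupffer and myeloid markers, and Cidec (-1.73), the 1 adipocyte marker tested, fell, and the 4 mesothelial markers did not pass the test. The summed stellate and endothelial markers of the 3 restricted libraries thus lay above those of the 3 control libraries, while Col1a1, Col3a1 and Col15a1 were lower in them. The part of any of these cell types in the collagen differences was not tested.

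The hormone experiment asked what raised corticosterone does by itself. Fkbp5, a glucocorticoid-induced gene, rose from 38.1 ± 16.9 to 236 ± 49.4 CPM (SD, n = 3 each; log2 2.63 ± 0.35, adjusted p = 0.00797; higher in 3 of 3 libraries). Col15a1 was at 7.91, 7.96 and 10.3 CPM with vehicle and at 8.04, 6.79 and 8.76 CPM with corticosterone. The groups overlapped (-0.15 ± 0.17, adjusted p = 0.627). Col14a1 was at 22.2, 32.4 and 33.2 CPM with vehicle and at 19.1, 22.3 and 23.8 CPM with corticosterone, with the lowest vehicle library inside the treated range (-0.43 ± 0.17, adjusted p = 0.173; lower than the vehicle mean in 3 of 3).

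edgeR called 0 of the 10 collagen genes and DESeq2 0, where edgeR called 8.11% of all genes tested. At an unadjusted p under 0.05 there was 1, Col14a1, where 2997 of 11523 genes tested had such a p. The groups overlapped for each of the 10 genes. Of the pathway lists, 2 of 21 TGF-beta and PDGF signalling genes rose, Skil (1.09) and Tgfbr3 (1.05), and 1 fell, Ccn1 (-1.49). Nid2 (-0.85) of 9 basement membrane partners, Mmp19 (-0.69) of 12 degradation genes and Col27a1 (-0.97) of 13 other collagen genes fell. In these lists 17 folding, 10 processing, 6 receptor and 15 interstitial partner genes did not pass the test. Stellate markers summed to 175, 182 and 210 CPM with vehicle and to 161, 177 and 174 CPM with corticosterone, with Ecm1 the most abundant, and 1 of 9 fell (Lrat, -1.34). Endothelial markers summed to 125, 131 and 154 CPM with vehicle and to 99.8, 114 and 118 CPM with corticosterone, with Clec4g the most abundant, and 1 of 9 fell (Kdr, -0.62). Kupffer and myeloid markers summed to 70.2, 87.3 and 92.4 against 99.0, 138 and 115 CPM, with Clec4f the most abundant, and 2 of 8 rose, Marco (1.58) and Cd5l (0.77). Fgb (0.84), 1 of 8 hepatocyte markers, rose. Cholangiocyte markers summed to 9.49, 8.27 and 11.2 against 4.78, 19.1 and 4.24 CPM, with Sox9 the most abundant with vehicle and Krt19 with corticosterone, and of 3 tested 1 fell (Sox9, -1.16). The 4 portal fibroblast and 3 myofibroblast markers tested did not pass the test, and the part of these markers in the levels of the collagen genes was not tested. Corticosterone replicate 2 had the highest Col1a1 (5.67 CPM), Col3a1 (16.5 CPM) and Col6a1 (10.1 CPM) of the 6 libraries, and in it myofibroblast markers summed to 29.6 CPM, with Acta2 at 12.5 CPM.

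The time series asked what loss of the receptor in hepatocytes changes over the day on each diet. The paired basement membrane chains were higher in GRLKO on both diets. Col4a2 ranged from 8.73 to 33.2 CPM (median 14.3) in 22 control-fed WT libraries and from 12.0 to 33.0 (median 22.9) in 20 GRLKO libraries. Under calorie restriction it ranged from 6.27 to 28.6 (median 14.7) in 18 WT and from 8.56 to 42.3 (median 22.9) in 18 GRLKO libraries. The ranges overlapped across the day, and within time points 19 of 20 control-fed and 18 of 18 calorie-restricted GRLKO libraries lay above the WT mean. The average log2 difference was 0.53 ± 0.10 on the control diet (adjusted p = 1.78e-04) and 0.54 ± 0.095 under calorie restriction (adjusted p = 4.72e-05), and it was called under all 15 and all 13 alternatives.

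Col4a1 ranged from 10.4 to 51.6 CPM (median 17.2) in control-fed WT and from 12.0 to 41.8 (median 25.9) in GRLKO. Under calorie restriction it ranged from 9.41 to 41.3 (median 21.1) in WT and from 12.3 to 50.0 (median 29.7) in GRLKO. Of the GRLKO libraries, 16 of 20 control-fed and 17 of 18 calorie-restricted ones lay above the WT mean of their time point. The average differences were 0.38 ± 0.096 (adjusted p = 0.00387) and 0.40 ± 0.092 (adjusted p = 0.00102). The control-diet call ended without the replicate 1 libraries (0.31, adjusted p = 0.0743) and remained without the libraries high in fibrillar collagen, an alternative chosen after seeing the data (0.42, adjusted p = 1.51e-04). Without those libraries the control-diet difference of Col4a2 was 0.56 (adjusted p = 3.66e-05).

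Col15a1 ranged from 3.65 to 13.2 CPM (median 7.30) in control-fed WT and from 2.99 to 16.4 (median 8.96) in GRLKO. Under calorie restriction it ranged from 0.697 to 17.4 (median 3.67) in WT and from 4.10 to 28.2 (median 6.10) in GRLKO. Of the GRLKO libraries, 15 of 20 control-fed and 16 of 18 calorie-restricted ones lay above the WT mean of their time point. The average differences were 0.39 ± 0.12 on the control diet (adjusted p = 0.0155) and 0.78 ± 0.16 under calorie restriction (adjusted p = 2.82e-04). The control-diet call ended without replicate 2 (adjusted p = 0.137), replicate 3 (0.215), ZT0 (0.0616), ZT16 (0.124) or ZT20 (0.0885), and the calorie-restriction call remained under all 13 alternatives. Without the libraries high in fibrillar collagen the control-diet difference was 0.36 (adjusted p = 0.0207).

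Under calorie restriction Col3a1 and Col14a1 were called higher in GRLKO as well. Col3a1 ranged from 4.07 to 47.3 CPM (median 14.0) in WT and from 5.11 to 51.8 (median 19.8) in GRLKO, and Col14a1 from 18.6 to 53.6 (median 29.5) and from 20.9 to 76.3 (median 36.0). For each gene 13 of 18 GRLKO libraries lay above the WT mean of their time point. The differences were 0.43 ± 0.15 for Col3a1 (adjusted p = 0.0288) and 0.30 ± 0.10 for Col14a1 (adjusted p = 0.0214). Both calls ended without replicate 1 (adjusted p = 0.187 and 0.288), replicate 2 (0.0616 and 0.0796), ZT8 (0.0875 and 0.0651) or ZT20 (0.262 and 0.209), and that of Col3a1 also without replicate 3 (0.0866). On the control diet the medians were 17.2 CPM in WT and 15.3 in GRLKO for Col3a1, and 41.6 and 37.5 for Col14a1. For Col3a1 the means lay the other way, at 19.8 CPM in WT and 20.8 in GRLKO. Of 20 control-fed GRLKO libraries, 10 lay above the WT mean of their time point for Col3a1 and 9 for Col14a1.

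Averaged over the day, 5 of the 10 genes were called under calorie restriction, 5 higher and 0 lower, where 30.0% of all genes were called, 14.3% higher and 15.7% lower. DESeq2 called the same 5 genes. An unadjusted p under 0.05 was found for 7 of the 10 and for 5184 of 13041 genes tested. On the control diet 3 of 10 were called, 3 higher and 0 lower, where 17.6% of all genes were called, 9.50% higher and 8.10% lower. The median log2 difference of the 10 genes was 0.38 under calorie restriction and 0.15 on the control diet, against 0.00 over all genes on each diet. Whether the genotype difference itself differed between diets was tested across both tables. edgeR called 0 of the 10 genes there and DESeq2 0, where edgeR called 1.70% of all genes. An unadjusted p under 0.05 was found for 1893 of 13376 genes tested and for 2 of the 10. These were Col14a1 (0.34 ± 0.15, adjusted p = 0.271) and Col15a1 (0.40 ± 0.20, adjusted p = 0.348).

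Basement membrane partners included 4 of 10 called higher in GRLKO under calorie restriction, Lama4 (0.39), Hspg2 (0.26), Nid1 (0.19) and Lamc1 (0.19). On the control diet 10 of 10 did not pass the test, nor did they in the test of the difference between diets. Over all lists of collagen-related genes that test called Plod1 (-0.24) of 19 folding genes and Col27a1 (0.54) of 20 other collagen genes. Of 19 folding genes 1 was higher (Crtap, 0.34) and 6 were lower under calorie restriction, among them P4ha2 (-0.77), Fkbp14 (-0.27), Plod1 (-0.23) and Ppib (-0.15). In control-fed livers Colgalt2 (0.66) and P4hb (0.09) were higher and P4ha2 (-0.38) lower of 19. Of 10 processing genes Tgm2 was higher (0.67 under calorie restriction, 0.46 on the control diet) and Bmp1 lower (-0.44 and -0.20) on both diets. Of 6 receptor genes Itga10 (-0.59) was lower under calorie restriction, and on the control diet 6 of 6 did not pass the test.

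Of 19 interstitial partners 3 were higher under calorie restriction, Fbln2 (0.51), Postn (0.35) and Sparc (0.24), and Vtn (-0.19) was lower. In control-fed livers Vtn (-0.11) was lower and 18 did not pass the test. Among degradation genes Ctsb (0.22) and Timp3 (0.17) were higher and Ctsl (-0.19) lower of 14 under calorie restriction, and Ctsb (0.16) was higher of 13 on the control diet. Of 24 signalling genes 6 were higher and 3 lower under calorie restriction, with Pdgfb (0.47), Ccn1 (0.37), Pdgfc (0.30), Tgif1 (0.29), Skil (-0.51), Tgfbr1 (-0.14) and Smad4 (-0.10). Ccn1 (0.53) and Smad2 (0.12) were higher and Skil (-0.30) lower on the control diet. Of the other collagen genes 5 of 19 were higher and 2 lower under calorie restriction, among them Col12a1 (0.81), Col4a5 (0.67), Col5a3 (0.48) and Col11a2 (-0.68). In control-fed livers 3 of 18 were higher, among them Col25a1 (0.79) and Col12a1 (0.39), and Col11a2 (-0.69) was lower. Read against the 30.0% and 17.6% of all genes called, these counts are not a result about the lists.

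Marker counts by genotype are to be read against the 30.0% of all genes called under calorie restriction and the 17.6% on the control diet, and a share near these is not a result about a cell type. Of 9 endothelial markers 6 were higher and 1 lower in GRLKO under calorie restriction, and they summed to 184 to 262 CPM (median 211) in WT and to 195 to 295 CPM (median 245) in GRLKO, with Clec4g the most abundant in WT and Kdr in GRLKO. On the control diet 1 of 9 was higher (Tie1, 0.27), with median sums of 173 and 167 CPM. Stellate markers had median sums of 241 and 240 CPM under calorie restriction, where 1 of 9 was higher (Pdgfrb, 0.20), and of 226 and 211 CPM on the control diet, where 1 of 9 was lower (Rgs5, -0.29). Portal fibroblast markers had median sums of 6.76 and 8.88 CPM under calorie restriction, with 2 of 6 tested higher, Fbln2 (0.51) and Entpd2 (0.43), and of 7.64 and 7.63 CPM on the control diet, with 1 of 6 higher, Entpd2 (0.27; sums over all 8). Of 8 hepatocyte markers 2 were lower in GRLKO under calorie restriction, Apoa1 (-0.76) and Alb (-0.21), with median sums of 133646 and 113973 CPM, and 4 on the control diet, among them Apoa1 (-0.52) and Alb (-0.20), with median sums of 98042 and 82718 CPM. Of 5 adipocyte markers 2 were tested and both were higher in GRLKO on both diets, Cidec (2.63 under calorie restriction, 2.61 on the control diet) and Cfd (6.77 and 5.93). All 5 had median sums of 0.534 and 3.93 CPM under calorie restriction and of 1.44 and 23.7 CPM on the control diet, with Cidec the most abundant except in control-fed GRLKO, where Cfd was. Plin1 had no count in 90, Lep in 89 and Adipoq in 62 of 90 libraries. Among 4 lymphocyte markers tested Cd79a (0.89) was higher under calorie restriction, and 8 of 8 Kupffer and myeloid markers did not pass the test on either diet, nor did the cholangiocyte, mesothelial and myofibroblast markers tested. The part of these cell types in the collagen differences was not tested.

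**Figure D2:**
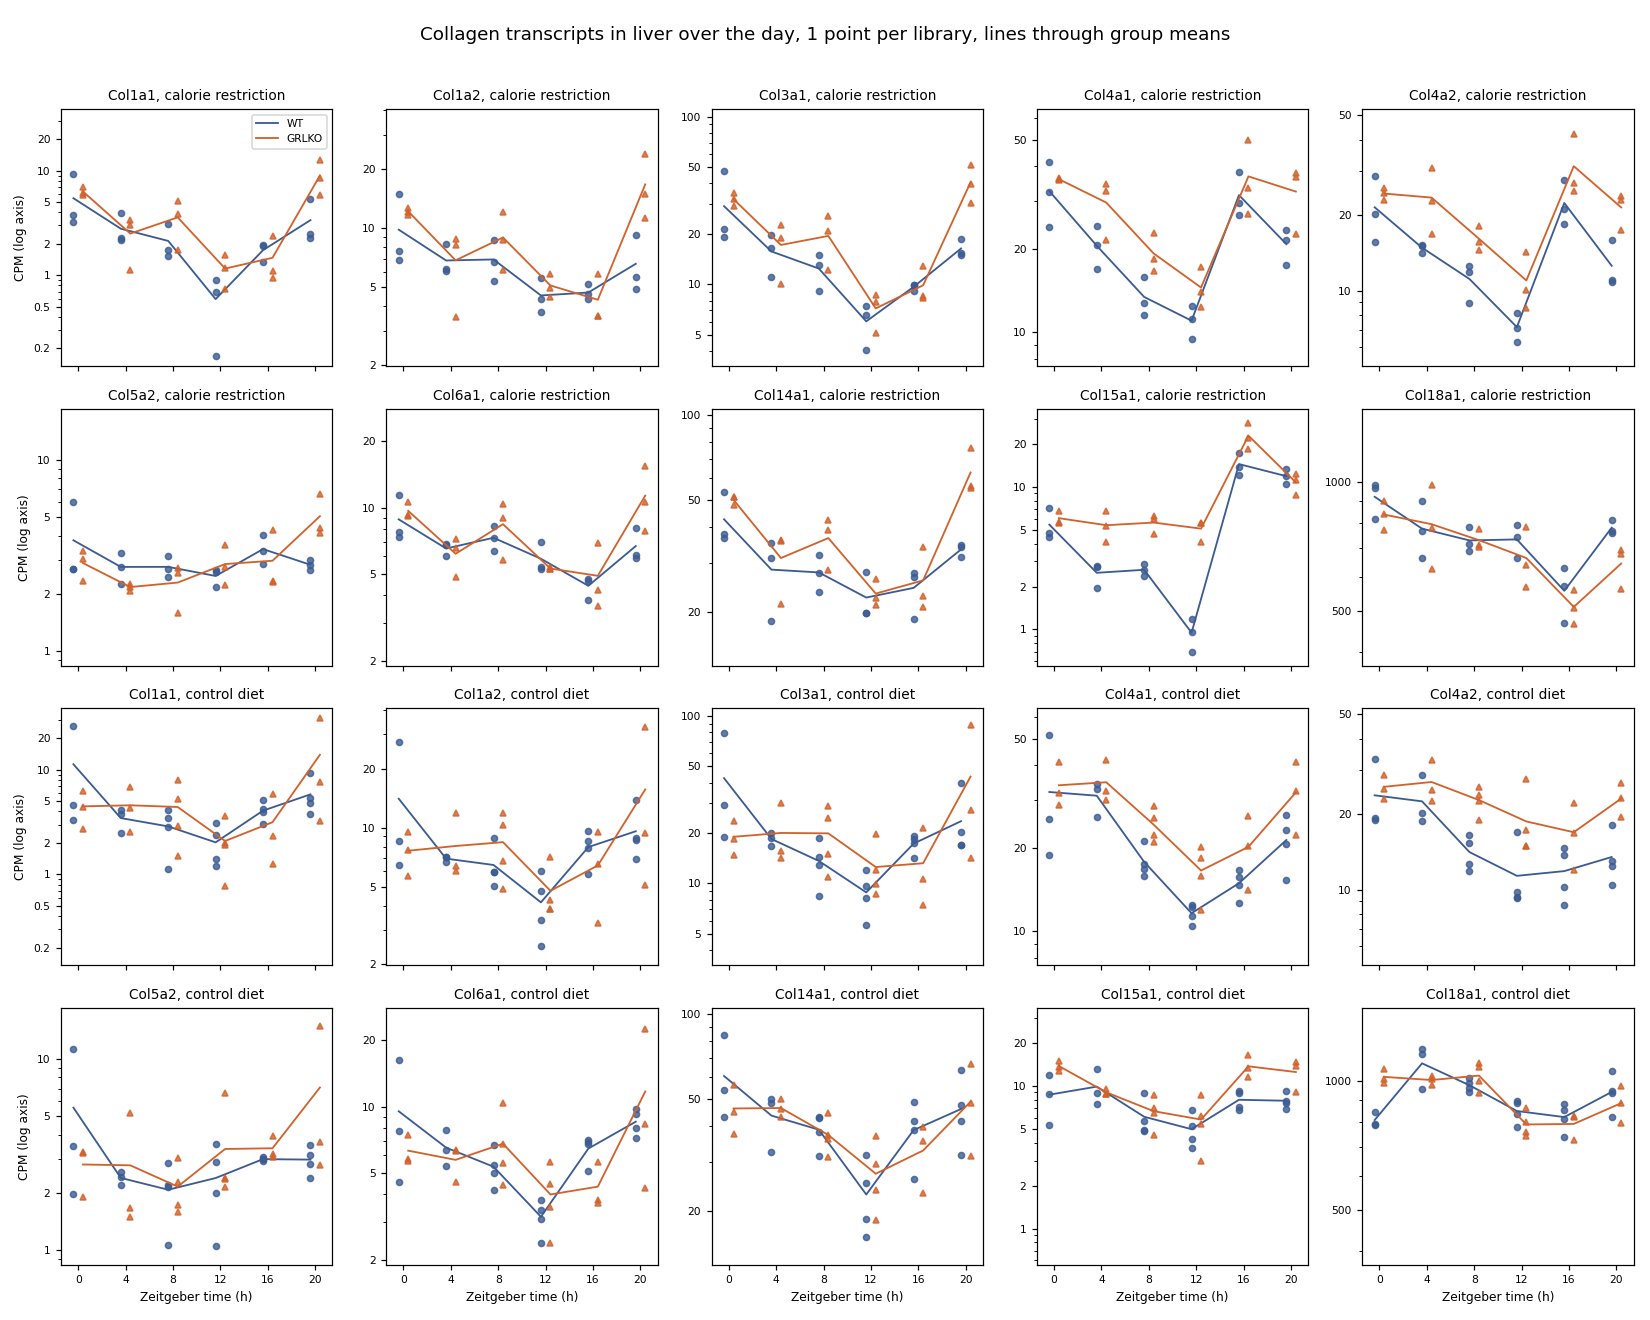
CPM on log axes of the 10 collagen genes against zeitgeber time in hours, under calorie restriction (upper panels) and on the control diet (lower panels), with 1 point per library and lines through the means of WT and GRLKO. Calorie-restricted WT falls to a mean of 0.950 CPM of Col15a1 at ZT12 while GRLKO stays at 5.10, and both have their highest mean at ZT16.

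The genotype difference in Col15a1 varied over the calorie-restricted day. In WT it was at 4.45, 4.72 and 7.14 CPM at ZT0, was at 1.19, 0.697 and 0.960 CPM at ZT12 and stood at 17.4, 12.2 and 13.7 CPM at ZT16. In GRLKO it was at 6.80, 5.72 and 5.59 CPM at ZT0, 4.10, 5.59 and 5.60 CPM at ZT12 and 18.5, 21.9 and 28.2 CPM at ZT16. The WT trough at ZT12 was thus deeper, and the genotypes did not overlap at ZT4, ZT8, ZT12 and ZT16. At ZT20 they overlapped, with WT at 12.0, 10.4 and 13.3 CPM and GRLKO at 8.71, 12.3 and 11.2 CPM. The difference was largest at ZT12, 2.41 ± 0.28 (adjusted p = 0.00208; higher in 3 of 3), where GRLKO was 5.37 times WT. It was called there under all 10 alternatives, among them those without the library with pancreatic transcripts (2.41, adjusted p = 0.0112) and without the one with muscle transcripts (2.54, adjusted p = 0.00650), over which the adjusted p ran from 6.32e-08 to 0.0175. At ZT12 endothelial markers summed to 202, 184 and 225 CPM in WT and to 260, 243 and 273 CPM in GRLKO, with Clec4g the most abundant, and Kupffer and myeloid markers to 45.4, 72.8 and 52.8 against 126, 101 and 128 CPM, with Clec4f the most abundant, and their part in the difference was not tested.

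At ZT8 Col15a1 was at 2.89, 2.60 and 2.37 CPM in WT and 6.28, 4.68 and 5.91 CPM in GRLKO. All GRLKO libraries were above all WT libraries (1.10 ± 0.19, adjusted p = 0.0282). The call ended without any 1 of the 6 libraries, at adjusted p from 0.0550 without WT replicate 1 to 0.124 without GRLKO replicate 1. At ZT4 it was at 2.80, 2.73 and 1.96 CPM in WT and 6.75, 4.10 and 5.32 CPM in GRLKO (1.11 ± 0.25, adjusted p = 0.125). The log2 difference was 0.66 ± 0.19 at ZT16 (adjusted p = 0.104) and -0.12 at ZT20. The test of genotype by time called Col15a1 (adjusted p = 1.63e-04) and lost the call without the replicate 3 libraries (adjusted p = 0.0836).

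Col15a1 was 1 of the 10 genes called for genotype by time under calorie restriction, where 5.34% of all genes were called. An unadjusted p under 0.05 was found for 2 of the 10 and for 2661 of 13041 genes tested. On the control diet edgeR called 0 of 10, where 0.600% of all genes were called. The unadjusted p was under 0.05 for 1 of the 10 and for 1287 of 12834 genes tested. DESeq2 called 1 there, Col18a1 (adjusted p = 0.0145, against 0.178 with edgeR). Col15a1 in control-fed livers at ZT12 was at 6.76, 5.26, 3.65 and 4.24 CPM in WT and at 2.99, 6.18, 8.69 and 5.38 CPM in GRLKO, so that the genotypes overlapped at the hour at which they were farthest apart under calorie restriction. Whether the genotype difference at ZT12 differed between diets was not tested.

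By time point under calorie restriction, edgeR called 0 of the 10 genes at ZT0 (background 0.502%), with 0 at an unadjusted p under 0.05 and 0 by DESeq2. It called 0 at ZT4 (background 0.690%), with 3 unadjusted and 1 by DESeq2, Col15a1 (adjusted p = 0.0321). It called 1 at ZT8 (background 2.55%) and 1 at ZT12 (background 15.3%), Col15a1 at both. It called 0 at ZT16 (background 4.54%), with 1 unadjusted and 1 by DESeq2, again Col15a1 (adjusted p = 0.0361). At ZT20 it called 2 (background 1.47%), Col3a1 and Col14a1, with 8 at an unadjusted p under 0.05, 7 whose groups did not overlap, and 5 by DESeq2. These backgrounds are for adjusted edgeR calls alone. By edgeR, 1606 of 12140 genes had an unadjusted p under 0.05 at ZT0 and 1755 of 12025 at ZT4. There were 2285 of 11905 at ZT16 and 2340 of 12076 at ZT20. Shares of all genes without overlap or called by DESeq2 are not given, so those counts are not a result about collagens.

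At ZT20, in the later part of the night, Col3a1 and the fibril-binding Col14a1 were higher in calorie-restricted GRLKO. Col3a1 was at 15.4, 14.9 and 18.8 CPM in WT and at 51.8, 30.5 and 39.7 CPM in GRLKO. Col14a1 was at 31.5, 34.5 and 34.2 CPM in WT and at 76.3, 56.1 and 55.3 CPM in GRLKO. The groups did not overlap for either gene, and GRLKO replicate 1 was the highest library for both. The log2 differences were 1.34 ± 0.21 for Col3a1 and 0.94 ± 0.14 for Col14a1 (adjusted p = 0.0323 for each; higher in 3 of 3). Col1a1 was at 2.26, 2.49 and 5.36 CPM in WT and at 12.6, 5.85 and 8.58 CPM in GRLKO (1.45 ± 0.41, adjusted p = 0.131). Col1a2, the other type I chain, was at 4.89, 5.63 and 9.28 CPM in WT and at 24.1, 11.3 and 15.01 CPM in GRLKO (1.38 ± 0.34, adjusted p = 0.105). Col5a2 was at 2.997, 2.67 and 2.82 CPM in WT and at 6.64, 4.17 and 4.42 CPM in GRLKO (0.87 ± 0.24, adjusted p = 0.124). DESeq2 called Col1a1, Col1a2, Col3a1, Col4a2 and Col14a1. Col18a1 lay the other way, with GRLKO below WT in all 3 libraries (-0.25 ± 0.11, adjusted p = 0.271).

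Each call at ZT20 rested on few libraries. That of Col3a1 ended without WT replicate 1 (adjusted p = 0.147), WT replicate 2 (0.125), WT replicate 3 (0.109) or GRLKO replicate 3 (0.0618), and that of Col14a1 without WT replicate 1 (0.148), 2 (0.117), 3 (0.128) or GRLKO replicate 2 (0.0538). The test of genotype by time did not call Col3a1 (adjusted p = 0.286) or Col14a1 (adjusted p = 0.331), so a difference between ZT20 and the other hours was not found for them. Markers of myofibroblast activation summed to 7.95, 8.60 and 14.6 CPM in WT and to 24.9, 15.2 and 16.1 CPM in GRLKO at ZT20, with Tagln the most abundant. Stellate markers summed to 284, 274 and 312 against 376, 248 and 236 CPM, and portal fibroblast markers to 8.32, 6.29 and 8.07 against 14.2, 8.05 and 8.39 CPM. GRLKO replicate 1, highest in the collagens, was also highest in these 3 sums, and their part in the difference was not tested.

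In control-fed livers a single time point had a call. At ZT8 Col4a2 was at 12.7, 11.9, 16.6 and 15.3 CPM in WT and at 24.0, 25.6, 19.0 and 22.6 CPM in GRLKO. All 4 GRLKO libraries were above all 4 WT libraries (0.69 ± 0.12, adjusted p = 0.0303), and 1 of the 10 genes was called where 1.43% of all genes were. The call ended without WT replicate 1 (adjusted p = 0.104), WT replicate 2 (0.0819), GRLKO replicate 1 (0.0930), GRLKO replicate 2 (0.0834) or GRLKO replicate 4 (0.0853). Col4a1 at the same hour was at 15.8, 16.8, 17.6 and 21.2 CPM in WT and at 28.4, 25.7, 22.3 and 21.1 CPM in GRLKO (0.44 ± 0.12, adjusted p = 0.135).

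At the other 5 control-diet time points the backgrounds given are for adjusted edgeR calls. Over all genes, an unadjusted p under 0.05 was found for 1798 of 11749 at ZT0 and 1152 of 11817 at ZT4. It was found for 1444 of 11428 at ZT12, 1950 of 11723 at ZT16 and 1346 of 11906 at ZT20. Of the 10 collagen genes edgeR called 0 at these 5 time points. At ZT0 (background 0.536%) 3 had an unadjusted p under 0.05 and DESeq2 called 1, Col18a1, at 788, 847 and 795 CPM in WT and 1064, 991 and 1010 CPM in GRLKO (0.33 ± 0.093, adjusted p = 0.177 with edgeR, 0.127 to 0.465 with 1 library left out, and 0.00203 with DESeq2; higher in 3 of 3). At ZT4 (background 0.195%) 0 had an unadjusted p under 0.05 and DESeq2 called 0. At ZT12 (background 2.08%) 2 did and DESeq2 called 0, and edgeR called 1, Col4a1, without GRLKO replicate 1 (adjusted p = 0.0436 against 0.177). At ZT16 (background 1.98%) 2 did and DESeq2 called 1, Col15a1, at 7.09, 6.76, 8.92 and 9.24 CPM in WT and 13.3, 11.5 and 16.4 CPM in GRLKO (0.78 ± 0.17, adjusted p = 0.0621 with edgeR, 0.0783 to 0.146 with 1 library left out, and 0.00599 with DESeq2; higher in 3 of 3). At ZT20 (background 0.420%) 4 did and DESeq2 called 1, Col4a2, at 12.4, 13.1, 10.4 and 18.1 CPM in WT and 26.7, 23.2 and 19.4 CPM in GRLKO (0.78 ± 0.20, adjusted p = 0.186 with edgeR, 0.108 to 0.397 with 1 library left out, and 0.0329 with DESeq2; higher in 3 of 3).

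Most of the 10 genes had their lowest mean at ZT12, when the lights go off and food is given. In calorie-restricted WT livers the mean of Col3a1 went from 29.3 CPM at ZT0 to 6.02 at ZT12, with 19.1, 47.3 and 21.5 CPM at ZT0 and 6.59, 7.39 and 4.07 CPM at ZT12. Col1a1 went from 5.47 to 0.593 CPM, with 3.21, 9.39 and 3.80 CPM at ZT0 and 0.911, 0.697 and 0.169 CPM at ZT12. Each ZT12 library was under 1 CPM for Col1a1, so a ratio to that mean rests on few counts. For both genes no ZT0 library overlapped a ZT12 library, and the means differed by 4.87 and 9.22 times. Replicate 2 at ZT0 was the highest for both, at 47.3 and 9.39 CPM, and raised these ratios. Replicate 3 at ZT12, the library with pancreatic transcripts, was the lowest for both, and without it the ZT12 means were 6.99 and 0.804 CPM. JTK_CYCLE, a rank test for a 24 h rhythm, called both (adjusted p = 3.58e-04 and 0.00160) with a peak at ZT0.

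In control-fed WT livers Col3a1 went from a mean of 42.5 CPM at ZT0 to 8.84 at ZT12 (JTK_CYCLE, adjusted p = 0.00253). The p values in this paragraph are for a 24 h rhythm over the time points, not for ZT0 against ZT12. Col3a1 was at 19.1, 29.4 and 79.1 CPM at ZT0 and at 8.17, 5.64, 12.0 and 9.60 CPM at ZT12. All ZT0 libraries were above all ZT12 libraries, and replicate 3 at ZT0 was the highest. Col4a1 went from 32.0 to 11.6 CPM (adjusted p = 9.30e-04), Col6a1 from 9.52 to 3.16 (0.00794), Col14a1 from 60.3 to 22.9 (0.00641) and Col4a2 from 23.8 to 11.4 (0.0329). Of these, the Col4a1 call remained whichever replicate was left out, at adjusted p up to 0.0223. That of Col3a1 ended without replicate 3 (0.0689), that of Col14a1 without replicate 2 (0.139), and those of Col4a2 and Col6a1 without replicate 2 (0.108 and 0.0844), 3 (0.283 and 0.181) or 4 (0.172 and 0.0742). Without replicate 3 at ZT0, the library high in fibrillar collagen, the ZT0 means were 24.2 CPM for Col3a1, 22.2 for Col4a1, 6.15 for Col6a1, 48.4 for Col14a1 and 19.1 for Col4a2. The calls of all 5 genes remained without it, at adjusted p from 0.00331 for Col4a1 to 0.0420 for Col4a2, and Col15a1 was called as well (0.0319 against 0.131).

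Under calorie restriction the course of Col15a1 was lowest at ZT12 and highest at ZT16. Its mean in WT was lowest at ZT12 (0.950 CPM) and highest 4 h later, at ZT16 (14.5 CPM), 15.2 times as high, and in GRLKO the same hours gave 5.10 and 22.9 CPM, 4.49 times. JTK_CYCLE, which looks for a cosine-like course, did not call it in WT (adjusted p = 0.0692) or GRLKO (0.115), while the F test over time points in edgeR did (adjusted p = 3.14e-08 and 8.03e-07). In control-fed livers the WT mean ranged from 4.98 CPM at ZT12 to 9.90 at ZT4 and the GRLKO mean from 5.81 at ZT12 to 13.8 at ZT0. Col18a1 had its highest mean under calorie restriction at ZT0 and its lowest at ZT16, at 923 and 556 CPM in WT and 839 and 510 CPM in GRLKO. In calorie-restricted GRLKO the highest means of Col3a1 and Col14a1 were at ZT20, at 40.6 CPM against 7.19 at ZT12 and at 62.5 against 23.3 CPM, while the phase fitted by JTK_CYCLE was ZT0 for both.

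JTK_CYCLE called 3 of the 10 genes in calorie-restricted WT (Col1a1, Col3a1 and Col14a1; background 21.7%), 5 in control-fed WT (background 27.2%), 2 in calorie-restricted GRLKO (Col3a1 and Col18a1; background 19.9%) and 4 in control-fed GRLKO (Col4a1, Col14a1, Col15a1 and Col18a1; background 22.8%). The F test over time points called 9 (background 64.3%), 9 (50.0%), 10 (60.5%) and 6 (42.0%) in the same order. JTK_CYCLE backgrounds cover all genes with any count in the group, 18651 in calorie-restricted WT. Those of the F test cover the genes kept by the count filter, 12624 in that group, so the backgrounds of these tests are not comparable. With 1 replicate left out, JTK_CYCLE called 1 to 2 in calorie-restricted WT and 2 to 6 in control-fed WT. In calorie-restricted GRLKO it called 0 without replicate 1, 2 or 3, at adjusted p from 0.0968 to 0.453 for Col3a1 and from 0.0968 to 0.927 for Col18a1. In control-fed GRLKO it called 0 to 4, and the call of Col4a1 ended without replicate 1 (0.0534) or 3 (0.0718), and those of Col14a1, Col15a1 and Col18a1 without replicate 1 (0.125, 0.0946 and 0.0946), 2 (0.290, 0.105 and 0.105) or 3 (0.274, 0.0950 and 0.352). In calorie-restricted WT, Col3a1 remained called without replicate 1, 2 or 3, at adjusted p up to 0.0463, Col1a1 was not called without replicate 1 (0.0627) or 2 (0.132), and Col14a1 was not called without 1 (0.301), 2 (0.0708) or 3 (0.555). Differences in rhythm between genotypes were not tested beyond genotype by time.

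The 10 genes were also compared with each other over the 78 time series libraries after the mean of each group was removed, a description of libraries that share depth and composition. Col1a2 and Col3a1 had a Pearson r of 0.947, Col1a1 and Col3a1 of 0.939, and Col1a1 and Col1a2 of 0.926. Col6a1 lay close to them, with r from 0.806 to 0.828. The head-to-head pair Col4a1 and Col4a2 had an r of 0.780. Col15a1 had an r from -0.426 with Col5a2 to 0.200 with Col18a1, and Col18a1 had an r between -0.178 and 0.320 with the others. Without the libraries high in fibrillar collagen (76 libraries, chosen after seeing the data) r was 0.923 for Col1a2 and Col3a1, 0.917 for Col1a1 and Col3a1, 0.898 for Col1a1 and Col1a2, and 0.760 for Col4a1 and Col4a2. It was between 0.723 and 0.729 for Col6a1 with these 3 genes, and for Col15a1 it ran from -0.275 with Col5a2 to 0.245 with Col4a2.

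**Figure D3:**
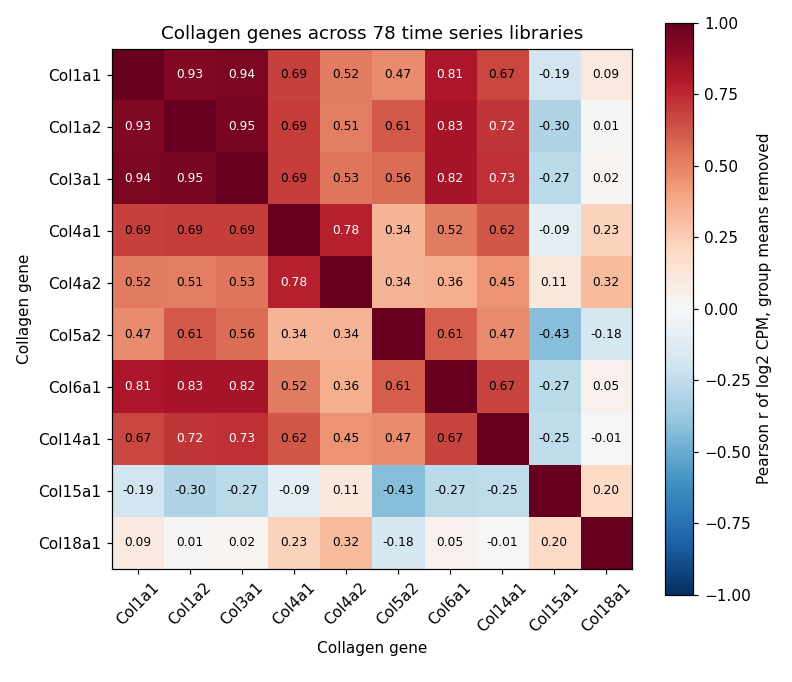
Pearson r of log2 CPM between each pair of the 10 collagen genes over 78 time series libraries with group means removed, shown as colour and number. Col1a1, Col1a2 and Col3a1 form a block with r from 0.926 to 0.947, and the columns of Col15a1 and Col18a1 are pale or blue.

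Of 11412 other genes with a mean of at least 1 CPM, the most alike by the same measure were Islr for Col1a1 (r = 0.830), Adamts2, a procollagen-trimming protease gene, for Col1a2 (0.873), and Sparc, which encodes a collagen-binding matrix protein, for Col3a1 (0.873) and Col4a1 (0.692). They were Piezo1 for Col4a2 (0.571), Csrp1 for Col5a2 (0.678), Col6a3, another type VI chain, for Col6a1 (0.854), and Angptl2 for Col14a1 (0.835). For Col15a1 it was Mcfd2 (0.679), followed by Gapdh (0.651), and for Col18a1 Marc1 (0.791), followed by Bckdha (0.770). Taken by diet, r for Col4a2 and Piezo1 was 0.439 on the control diet and 0.753 under calorie restriction, for Col1a2 and Adamts2 0.919 and 0.735, for Col15a1 and Mcfd2 0.744 and 0.550, and for Col18a1 and Bckdha 0.619 and 0.831. Without the libraries high in fibrillar collagen, r was 0.770 for Col1a1 and Islr, 0.536 for Col5a2 and Csrp1, and 0.599 for Col4a1 and Sparc. Among the 3 most alike genes of each member the first then changed for Col1a1 (Col6a3, 0.770), Col14a1 (Reln, 0.824) and Col15a1 (Slco2b1, 0.656, before Gapdh, 0.647, and Mcfd2, 0.613). Against summed marker levels over the same libraries, Col14a1 had its highest r with stellate markers (0.800), and Col1a1, Col1a2 and Col3a1 with portal fibroblast markers (0.671, 0.727 and 0.702). Without the libraries high in fibrillar collagen these were 0.776, 0.577, 0.625 and 0.594, and the highest r of Col1a1 (0.586) and Col3a1 (0.605) was then with markers of myofibroblast activation. Col15a1 had an r of -0.311 with stellate markers (-0.222 without them) and of 0.291 with hepatocyte markers (0.199 without them), and Col4a1 and Col4a2 of -0.359 and -0.270 with hepatocyte markers (-0.256 and -0.200 without them).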

How the data were processed

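The authors ran FastQC, MultiQC and Salmon and deposited 4 tables of gene-level estimated counts, which were rounded and used here without the deposited transformed values. Of 27654 identifiers 27244 were matched to GENCODE vM21 symbols, and the other 410 held 0.107% of counts. Genes were kept by filterByExpr (minimum count 10) and tested with edgeR 4.0.16 (trimmed mean of M values, quasi-likelihood F test) in R 4.3.3, with Benjamini-Hochberg adjustment at 0.05 over all genes tested. DESeq2 1.42.0 was the alternative. Rhythms were tested with a JTK_CYCLE written here (period 24 h, exact null) on variance-stabilised values of all genes with any count in the group. Similarity used log2 CPM (prior count 2) with group means removed. Promoter sequences came from RefSeq. Members and gene lists were chosen with earlier results of these data known. Of 102 pairs of libraries within groups 0 were identical. Of 14 comparisons 0 had paired replicates (r -0.122 to 0.115).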

Additional observations from a re-analysis of the deposited data

Results flagged for a closer look

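A rule for 1 library far from the others of its group was applied to 60 gene and group pairs with 4 libraries, and 5 met it; by chance it marks about 1 in 20 groups. Col1a2 in control-fed GRLKO at ZT12 met it at 0.860, with replicate 4 at 7.07 CPM and the others at 3.83 to 4.28. Col3a1 in control-fed WT at ZT20 met it at 0.859, with replicate 4 at 39.9 CPM and the others at 16.97 to 20.2. Col4a2 in control-fed WT at ZT12 met it at 0.924, with replicate 1 at 17.1 CPM and the others at 9.24 to 9.84. Col5a2 in control-fed GRLKO at ZT12 met it at 0.948, with replicate 1 at 6.64 CPM and the others at 2.15 to 2.39. Col6a1 in control-fed WT at ZT16 met it at 0.865, with replicate 4 at 5.08 CPM and the others at 6.78 to 7.05. Col15a1 was marked for genotype by time under calorie restriction, at an adjusted p of 0.000163.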

How the results depend on the processing

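Groups held 3 or 4 libraries per time point, so calls near the threshold depend on single libraries. Bulk RNA does not separate cell types. In the time series diet and deposited table cannot be told apart.

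With DESeq2 the collagen genes called numbered 1 at calorie-restricted ZT4, 1 at ZT16 and 5 at ZT20, 1 at control-diet ZT0, 1 at ZT16 and 1 at ZT20, and 1 for genotype by time on the control diet. With a replicate block they numbered 1 for diet (Col15a1), 0 at calorie-restricted ZT8, 0 at ZT20 and 0 at control-diet ZT8. With the edgeR F test over time points they numbered 9 in calorie-restricted WT, 9 in control-fed WT and 10 in calorie-restricted GRLKO. With the time series libraries the diet difference of Col18a1 was reversed, at -0.24.

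Leaving out 1 library or replicate gave 1 to 5 for diet, 0 to 0 at calorie-restricted ZT8, 0 to 2 at ZT20, 0 to 1 at control-diet ZT8 and 0 to 1 at ZT12. Leaving out 1 replicate or time point gave 3 to 5 for genotype under calorie restriction. The count was 3 without replicate 1, replicate 2, ZT8 or ZT20. The range was 2 to 3 on the control diet, and 0 to 1 for genotype by time under calorie restriction. For rhythm, leaving out 1 replicate gave 1 to 2 in calorie-restricted WT and 2 to 6 in control-fed WT. It gave 0 to 0 in calorie-restricted GRLKO and 0 to 4 in control-fed GRLKO.

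Of 90 alternatives for the genes most alike, 12 moved. With calorie restriction alone r was 0.560 for Col1a1 and Adamts2, 0.735 for Col1a2 and Adamts2, 0.753 for Col4a2 and Piezo1, 0.652 for Col6a1 and Cygb, 0.550 for Col15a1 and Mcfd2, 0.543 for Col15a1 and Gapdh, and 0.874 for Col18a1 and Scap. With the control diet alone it was 0.439 for Col4a2 and Piezo1, 0.619 for Col18a1 and Bckdha, and 0.534 for Col18a1 and Scap. Spearman r was 0.573 for Col5a2 and Csrp1 and 0.492 for Col15a1 and Gapdh. The cause was not tested for those that changed.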
